A study of Drosophila melanogaster with 6 samples.

Results

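Antimicrobial peptides are short, mostly cationic peptides that insects make against bacteria and fungi. In Drosophila they are produced by the fat body during systemic infection and by barrier epithelia such as the gut. Attacins act mainly on Gram-negative bacteria, Drosomycin is an antifungal peptide with relatives encoded in a cluster of Drosomycin-like (Drsl) genes, and Metchnikowin acts on fungi and Gram-positive bacteria. In the gut most of these genes are under the IMD pathway, in which peptidoglycan receptors signal to the NF-kappaB factor Relish. In the fat body Drosomycin and Metchnikowin also respond to the Toll pathway, and Drsl3 is known as a gut gene that responds to JAK/STAT signalling.

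The genes described here are the 10 antimicrobial peptide genes AttA, AttB, AttC, AttD, Drs, Drsl2, Drsl3, Drsl4, Drsl5 and Mtk, of 17321 genes in the table. They were picked by symbol with earlier results of the same libraries known, and each was followed through its transcript with the highest mean. AttB has 2 transcripts in the table and each of the other 9 genes has 1.

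The libraries came from enteroblasts (EBs), the undifferentiated daughters of intestinal stem cells, sorted by fluorescence (FACS) from the anterior midgut of adult females aged 16 to 18 days and kept at 25 °C. All flies carried Su(H)GBE-Gal4 with UAS-CD8::GFP, a Notch-responsive driver that marks EBs with GFP, so the sorted cells are whatever cells of the gut express that driver. There were 3 libraries of control EBs and 3 of Sox21a mutant EBs, each from a pool of flies. Sox21a is a transcription factor needed for EBs to differentiate. The controls are called wild-type in the sample labels and Sox21a/+ heterozygotes in the methods of the study, while the mutant flies were homozygous for an allele with a small frameshifting deletion. Homozygous flies also carry the rest of the mutant chromosome in 2 copies, so variants linked to Sox21a cannot be told apart from the mutation.

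Values are reads assigned to a transcript, divided by a size factor for the library, here called normalized reads. Every value was a whole multiple of 1 unit per library, and these units summed to 37286049 to 45955837 per library. The smallest value in each library stood at 2 units and was held by 25.9% to 31.9% of transcripts. Why no value was lower is not known, so values at this floor need not be observed reads. A level of 5 units (4.92 to 5.58 normalized reads) was taken as the limit of detection. Sox21a transcript levels did not separate the genotypes, at 16080 ± 1718 in control and 16065 ± 2566 normalized reads in mutant EBs (SD, n = 3). The frameshift allele still gave RNA, so this gene does not check the labels. The progenitor gene escargot (esg) was abundant in both groups but lower in the mutant, at 40916 ± 5641 in control and 14335 ± 2082 normalized reads in Sox21a EBs (SD, n = 3).

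The peptide genes fell into 3 sets. AttD, Drsl2, Drsl3 and Drsl4 were higher in every Sox21a library than in any control library, by a ratio of means of 59.0 to 262 where one could be formed. AttB was moderately expressed in both groups and was also higher in every Sox21a library, but by a ratio of only 1.66. Of all tested genes, 35.8% were likewise higher in every Sox21a library than in any control library. AttA, AttC, Drs, Drsl5 and Mtk were at or close to the limit of detection in both. Of the 10 genes, 5 had a mean of at least 10 normalized reads over the 6 libraries and were tested, and 4 of these 5 passed as higher and 0 as lower in Sox21a EBs with limma at a Benjamini-Hochberg adjusted p of 0.05. Over all genes tested, 24.2% passed as higher and 10.2% as lower. Because the genes were chosen with these contrasts in view, their calls describe the libraries and are not independent evidence, and Drsl3 and Drsl4 met the minimum only through their Sox21a libraries. The gene nearest to the minimum among those tested was Drsl4, with a mean of 28.6 normalized reads, and the nearest below it was Drs, with 6.07.

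**Figure D1:**
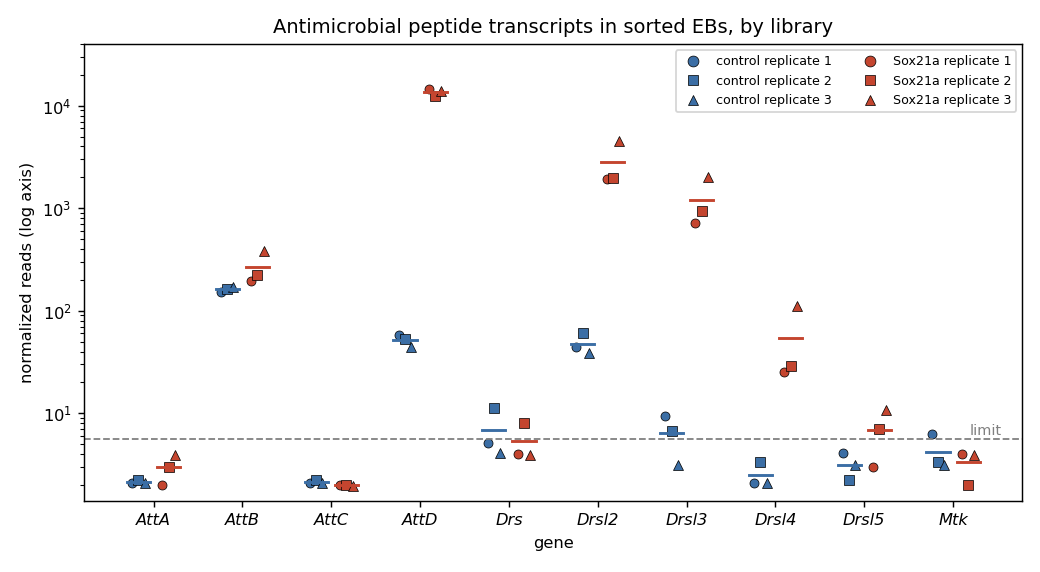
Normalized reads of the 10 antimicrobial peptide genes (logarithmic vertical axis) in the 3 control (blue) and 3 Sox21a (red) libraries, with replicate numbers shown by symbol, group means as bars and the upper detection limit of 5.58 as a dashed line. AttD, Drsl2, Drsl3 and Drsl4 are separated by genotype, AttB differs by a ratio of 1.66 without overlap, and the others lie near the limit.

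AttD (FBgn0038530) is the attacin that lacks the secretion signal of its relatives. It lies on 3R at 17625268-17626086 on the plus strand of genome release 6, with 2 exons, a transcript of 742 bases and a protein of 181 residues. Control EBs held 57.9, 53.6 and 44.5 normalized reads of AttD in replicates 1, 2 and 3, and Sox21a EBs held 14688, 12450 and 13791. The 3 libraries of each genotype were close to each other, and the groups were separated by more than 2 orders of magnitude. The mean rose from 52.0 ± 6.86 to 13643 ± 1126 normalized reads (SD, n = 3), a ratio of 262. On the scale of log2(value + 1) the difference was 8.01 with a standard error of 0.17, which placed AttD at rank 1 of 9571 tested genes ordered by log2 fold change. Leaving out any single library moved this difference only between 7.91 and 8.09. AttD was known to be among the largest rises when the genes were picked, so no test is attached to it.

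Drsl2 (FBgn0052279), a Drosomycin relative of 70 residues, is encoded by 1 exon of 333 bases on 3L at 3314349-3314681, plus strand. Its control values were 44.5, 60.3 and 38.3 normalized reads, and its Sox21a values were 1921, 1987 and 4537. The groups did not overlap, and Sox21a replicate 3 stood above replicates 1 and 2. The mean went from 47.7 ± 11.4 to 2815 ± 1491 normalized reads (SD, n = 3), a ratio of 59.0. The log2 fold change was 5.76 with a standard error of 0.36. No p-value is given, since Drsl2 was picked with earlier results of these libraries known. The gene ranked 15 of 9571 by log2 fold change. Without Sox21a replicate 3 the log2 fold change was 5.35.

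Drsl3 (FBgn0052283), with 71 residues and a single exon of 360 bases at 3L 3314996-3315355, plus strand, was nearly silent in control EBs. Its control values were 9.31, 6.70 and 3.10 normalized reads, of which replicate 3 was under the limit of detection, and its Sox21a values were 710, 942 and 1996. Sox21a replicate 3 was again the highest library, and the lowest Sox21a library was far above the highest control. The mean was 6.37 ± 3.12 in control and 1216 ± 685 normalized reads in Sox21a EBs (SD, n = 3), a ratio of 191. The log2 fold change was 7.32 with a standard error of 0.46, rank 4 of 9571. Since the control values were so low, this difference depended on the pseudocount: it was 6.10 with a pseudocount of 10 and 7.93 when the smallest value of each library was subtracted first. Like AttD, Drsl3 was known as one of the largest rises and is given without a test.

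Drsl4 (FBgn0052282), also 71 residues, with a single exon of 323 bases at 3L 3315620-3315942, plus strand, was at or under the limit in all 3 control libraries, at 2.07, 3.35 and 2.07 normalized reads. The Sox21a values were 25, 29 and 110 normalized reads. All 3 mutant libraries were above the limit, and replicate 3 was the highest. Against the upper detection limit as floor, the Sox21a mean of 54.7 ± 48.1 (SD, n = 3) was at least 9.80-fold higher. The fitted log2 fold change was 3.68 with a standard error of 0.53, 3.02 without Sox21a replicate 3 and 2.13 with a pseudocount of 10. It is given without a p-value, since the gene was tested only because of its Sox21a libraries. Of all 17321 genes, 1.59% were at or under the limit in the 3 control libraries and above it in the 3 Sox21a libraries.

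AttB (FBgn0041581) encodes a secreted attacin and lies on 2R at 14749223-14750165, plus strand, 1007 bases beyond the end of the closely similar AttA. Its main transcript, AttB-RB, had 152, 163 and 171 normalized reads in control and 197, 223 and 386 in Sox21a EBs. The groups did not overlap, which was also true of 35.8% of tested genes in this direction, and Sox21a replicate 3 was again the highest library. The mean was 162 ± 9.36 in control and 269 ± 102 normalized reads in Sox21a EBs (SD, n = 3), a log2 fold change of 0.66 with a standard error of 0.26 that did not pass (limma adjusted p = 0.087). It was 0.37 without Sox21a replicate 3.

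The minor transcript AttB-RA had 10.3, 11.2 and 5.17 normalized reads in control and 22, 27 and 74.8 in Sox21a EBs. These groups did not overlap either, and the log2 fold change was 1.95. Its control mean of 8.89 normalized reads was under the minimum for testing, which it met only through the Sox21a mean of 41.3, so no p-value is given. With both transcripts summed, the log2 fold change of AttB was 0.78 (adjusted p = 0.071). How reads were divided between near-identical attacin sequences and between these 2 transcripts is not known, so the AttA and AttB values are uncertain in that respect.

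The remaining 5 genes gave little or no signal. AttA (FBgn0012042), a secreted attacin, had 2.07, 2.23 and 2.07 normalized reads in control and 2, 3 and 3.93 in Sox21a EBs, all under the limit. AttC (FBgn0041579), another secreted attacin, had 2.07, 2.23 and 2.07 in control and 2, 2 and 1.97 normalized reads in Sox21a EBs, the smallest value of each library. Neither attacin was detectable at this depth in either genotype. Of all 17321 genes, 31.8% were likewise at or under the limit in all 6 libraries.

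Drs (FBgn0010381), the gene of Drosomycin itself, had 5.17, 11.2 and 4.14 normalized reads in control and 4, 8 and 3.93 in Sox21a EBs. Its groups overlapped, with replicate 2 the highest of each genotype. Mtk (FBgn0014865), the gene of Metchnikowin, had 6.21, 3.35 and 3.10 normalized reads in control and 4, 2 and 3.93 in Sox21a EBs, again overlapping. Drsl5 (FBgn0035434), the gene after Drsl4 in the cluster, had 4.14, 2.23 and 3.10 normalized reads in control and 3, 7 and 10.8 in Sox21a EBs. Its groups overlapped at the limit, and Sox21a replicates 2 and 3 alone exceeded it. AttC overlaps CG4744 on the opposite strand and Mtk overlaps Stacl on the same strand, so a few reads at these genes need not be theirs.

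Levels were compared between genes per kilobase of transcript. In Sox21a EBs the order of the means was AttD with 18387 normalized reads per kb, Drsl2 with 8453, Drsl3 with 3378, AttB with 305 and Drsl4 with 169. The libraries of AttD (16779 to 19795 per kb) lay above those of Drsl2 (5769 to 13623), and those of Drsl2 above those of Drsl3 (1972 to 5544). AttB (224 to 439 per kb) and Drsl4 (77.4 to 341) overlapped. In control EBs the order was different, with AttB at 184 normalized reads per kb, Drsl2 at 143 and AttD at 70.1. AttB (173 to 194 per kb) and Drsl2 (115 to 181) overlapped there, whereas AttD (59.9 to 78.1) was below both. Before division by length, the control means of AttD and Drsl2 were 52.0 and 47.7 normalized reads, and their libraries overlapped. The RNA was amplified, and whether reads covered transcripts evenly was not tested, so comparisons between genes are approximate. Among 12532 genes with a known transcript length, AttD stood at rank 152 in Sox21a EBs, at the 98.8th percentile, and at the 56.6th percentile in control EBs.

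The Sox21a libraries differed among themselves in the same sense for the Drosomycin-like genes and AttB, but not for AttD. Replicate 3 held 161% of the Sox21a mean for Drsl2, 164% for Drsl3, 201% for Drsl4 and 144% for AttB. For AttD the 3 replicates held 108%, 91.3% and 101% of the mean, so its level was nearly even. The ratio of replicate 3 to the mean of replicates 1 and 2 was 2.32 for Drsl2, 2.42 for Drsl3 and 4.08 for Drsl4, against a median of 1.08 over all tested transcripts, of which 1.23% reached a ratio of at least 2. Among the 6 enterocyte markers, the trypsin gene betaTry had the highest such ratio, 1.99, with 149% of the mean in replicate 3. The ratio was 1.41 for nub, 1.37 for Amy-p, 1.27 for Jon65Aiii, 1.05 for Mal-A1 and 0.82 for Myo31DF. Markers of other gut cells also varied, some of them above betaTry. Of the enteroendocrine markers, NPF had a ratio of 2.72, but CCHa2 had 0.54 and Tk 0.35. Of the progenitor markers, Dl had 2.13, klu 1.39 and esg 1.16. The part of these markers in the result was not tested.

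**Figure D2:**
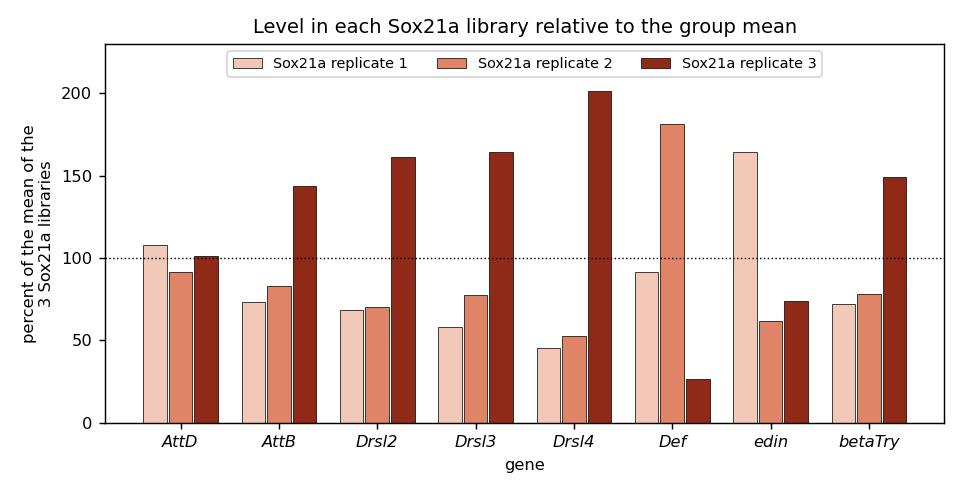
Level of each gene in the 3 Sox21a libraries, as a percentage of their mean (vertical axis, dotted line at 100%), for 5 antimicrobial peptide genes, Def, edin and betaTry, 1 of 6 enterocyte markers. Replicate 3 is highest for AttB, Drsl2, Drsl3, Drsl4 and betaTry, replicate 2 for Def at 181% and replicate 1 for edin at 164%, while AttD is even.

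The Drosomycin cluster gave a positional contrast. It spans 55594 bases of 3L from Drsl2 to Drs, in the order Drsl2, Drsl3, Drsl4, Drsl5, Drsl1, Drsl6 and Drs. The 3 genes that were high in Sox21a EBs are the first 3 of the cluster and lie within 1594 bases, separated by gaps of 314 and 264 bases. Drsl5 follows after 838 bases and was near the limit. Drsl1, which begins 18434 bases beyond Drsl5, stayed at the smallest value in all 6 libraries, at 2.07, 2.23 and 2.07 in control and 2, 2 and 1.97 normalized reads in Sox21a EBs. Drsl6 had 2.07, 2.23 and 2.07 normalized reads in control and 15, 14 and 2.95 in Sox21a EBs, above the limit in replicates 1 and 2 only, so that replicate 3, the highest for Drsl2 to Drsl4, was the lowest for Drsl6. Drs itself, 33137 bases beyond Drsl6, was near the limit in both genotypes. Sox21a is on the same arm, 10733538 bases from the end of the cluster, whereas AttD is on 3R.

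Protein-coding genes lying between and around the Drosomycin genes moved much less than Drsl2 to Drsl4. Of 18 such genes in the cluster or within 5 places of it, 15 were tested, 8 rose, 1 fell and 6 did not pass, beside 24.2% higher and 10.2% lower over all tested genes. After rescaling the libraries on the median of expressed transcripts, 6 were higher and 1 lower, with ZnT63C (limma adjusted p = 0.085) and Strip (0.099) no longer called. CG14968, 11237 bases before Drsl2, had the largest log2 fold change of the 15, going from 546 ± 62.3 to 2259 ± 112 normalized reads (SD, n = 3), at 2.05 with a standard error of 0.16 (limma adjusted p = 0.00015). PIG-C, the gene next to Drsl5, did not pass, with a log2 fold change of 0.66 (adjusted p = 0.11), although it did without control replicate 1 (adjusted p = 0.011). The other rises that passed lay between log2 fold changes of 0.58 (Strip) and 0.88 (CG12010), with Dpm2 and CG12016 counted on the same reads. The gene that fell, Ythdc1, a reader of methylated RNA, was at -0.58 (adjusted p = 0.018). The calls of 4 of these genes rested on single libraries. ZnT63C was kept only without control replicate 1, Strip only without control replicate 1 or Sox21a replicate 3, and Ythdc1 only without control replicate 1 or 3, with adjusted p up to 0.088, 0.098 and 0.071 in the other fits, while CG12010 was lost without Sox21a replicate 2 (0.055) or control replicate 2 (0.050).

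AttD had a different neighbourhood. The 5 genes before it (CG34281, CG14327, CG14324, CG14326 and CG14323) had means of at most 4.98 normalized reads in either genotype. CG14325, which starts 1041 bases after AttD, had 2.07, 2.23 and 2.07 normalized reads in control and 13, 23 and 9.84 in Sox21a EBs, at least 2.74-fold higher. CG43175, 4631 bases after AttD, had 6.21, 13.4 and 13.4 normalized reads in control and 1111, 1217 and 1324 in Sox21a EBs. Both neighbours were thus higher in every Sox21a library than in any control. For CG43175 the mean went from 11.0 ± 4.17 to 1217 ± 107 normalized reads (SD, n = 3), a log2 fold change of 6.73 with a standard error of 0.29 (limma adjusted p = 2.1e-05). CG14322, 21593 bases beyond AttD, was abundant and did not pass, with a log2 fold change of -0.10 and an adjusted p of 0.67.

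**Figure D3:**
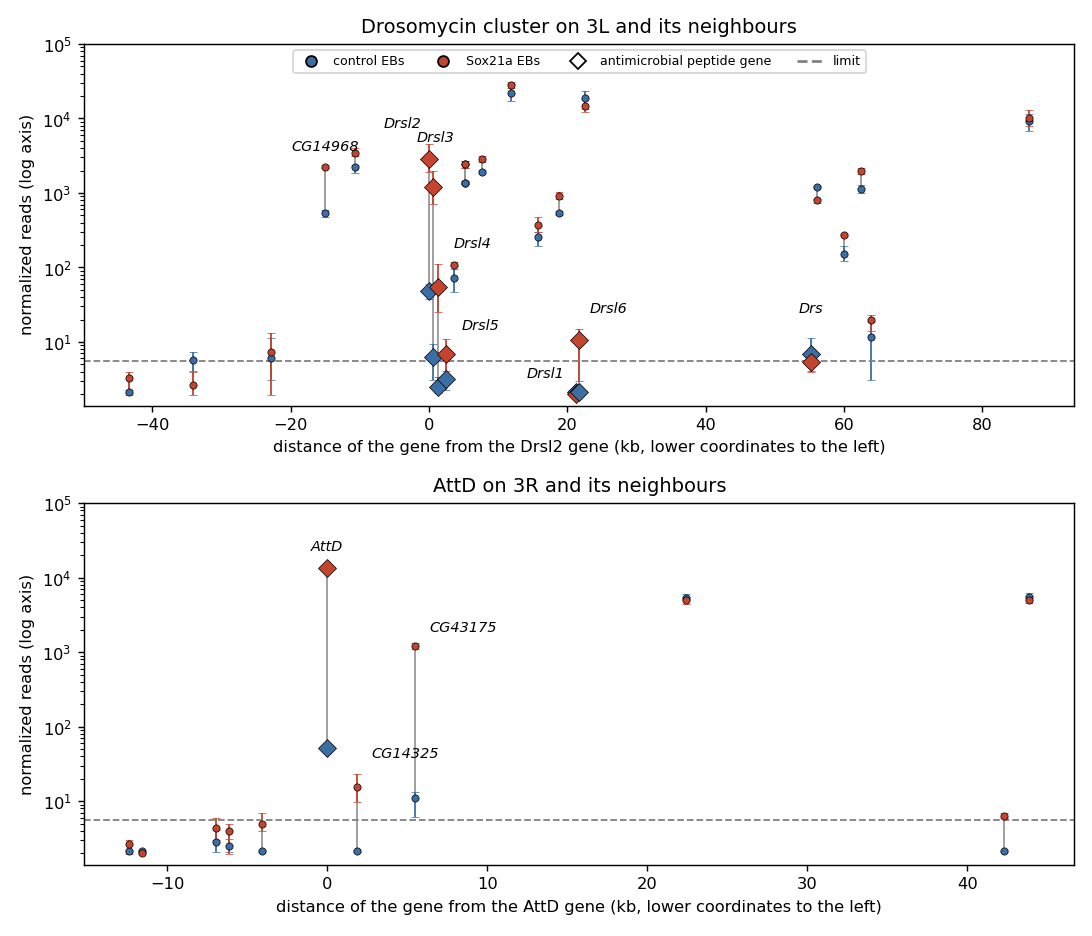
Normalized reads (logarithmic vertical axis, mean with the range of 3 libraries) of the genes around the Drosomycin cluster (top) and around AttD (bottom), against the distance of each gene in kb from Drsl2 or AttD, for control (blue) and Sox21a (red) EBs, with antimicrobial peptide genes as diamonds. The widest gaps between the genotypes are those of Drsl2 and Drsl3 at the left end of the cluster and of AttD and CG43175 at the AttD locus.

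By the Euclidean distance between log2(value + 1) profiles over the 6 libraries, each centred on its mean, the transcripts closest to AttD among 8780 compared were those of CG13117 (distance 0.83), Fmo-1 (1.21) and Drsl3 (1.57). Fmo-1 encodes a flavin-containing monooxygenase. The closest to Drsl3 were Fmo-1 (1.35), AttD (1.57) and CG13117 (1.69). CG13117 went from 17.6 ± 8.41 to 4251 ± 354 normalized reads and Fmo-1 from 4.33 ± 3.06 to 930 ± 168 (SD, n = 3). With 6 libraries in 2 groups, such closeness mostly expresses a difference of like size between the groups.

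Among 14 further antimicrobial peptide genes, 1 was expressed highly enough to be tested. Def, which encodes Defensin, a peptide active on Gram-positive bacteria, had 2.07, 2.23 and 2.07 normalized reads in control and 47, 93 and 13.8 in Sox21a EBs. All mutant libraries were above the limit and all controls at the smallest value. The Sox21a mean of 51.3 ± 39.8 normalized reads (SD, n = 3) was at least 9.18-fold higher, and the fitted log2 fold change of 3.70 had a standard error of 0.60, or 3.09 without Sox21a replicate 2 and 4.43 without Sox21a replicate 3. Def met the minimum for testing only through its Sox21a libraries, and no p-value is given. The gene edin, known for its role in the response to Gram-negative infection, had 2.07, 2.23 and 2.07 normalized reads in control and 24, 9 and 10.8 in Sox21a EBs, at least 2.62-fold higher. Of the 14 genes, 7 were at or under the limit in all 6 libraries, among them the 2 Diptericin genes DptA and DptB, Drosocin (Dro) and Andropin (Anp). The Cecropin genes CecC, CecA1 and CecB, which encode peptides against mainly Gram-negative bacteria, exceeded the limit in control replicate 2, at 23.4, 10.05 and 6.70 normalized reads, and had Sox21a means of 1.99, 4.64 and 2.98. Of the Sox21a libraries, only replicate 1 for CecA1 was above the limit, at 7 normalized reads. The 12 Bomanin genes, short secreted peptides controlled by Toll, were at or under the limit in every library.

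The pathways that control these genes were described from whole lists. For comparison, the log2 fold changes of the 9571 tested genes had a median of 0.24, and 24.2% of them passed as higher and 10.2% as lower. These shares are the background for the counts of each list. Of 12 genes of IMD signalling, 2 passed as higher, 4 as lower and 6 did not pass, with a median of 0.19. The receptors at its head are PGRP-LC, at the membrane, and PGRP-LE, mostly inside the cell. PGRP-LC fell from 3698 ± 506 to 2199 ± 182 normalized reads (SD, n = 3), with a log2 fold change of -0.74 (limma adjusted p = 0.014), and PGRP-LE had a log2 fold change of 0.23 that did not pass (adjusted p = 0.31). The adaptor imd fell, with a log2 fold change of -0.78 (adjusted p = 0.0098), as did Tab2, a partner of the kinase Tak1, at -0.93 (adjusted p = 0.0097). The adaptor Fadd rose, from 223 ± 25.0 to 495 ± 58.7 normalized reads, at 1.15 (adjusted p = 0.0025). Rel, which encodes Relish, was abundant in both genotypes and fell from 31671 ± 2151 to 20276 ± 2714 normalized reads, at -0.65 (adjusted p = 0.021). The other rise was key, a subunit of the IkappaB kinase, at 0.67 (adjusted p = 0.036).

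Several of these calls rested on single libraries. That of imd was lost without Sox21a replicate 2 (adjusted p = 0.053) and that of PGRP-LC without Sox21a replicate 1 (adjusted p = 0.060). Rel lost its call without Sox21a replicate 1 (adjusted p = 0.082), Sox21a replicate 2 (0.071), control replicate 2 (0.059) or control replicate 3 (0.067). For key the call was kept only without control replicate 3, with an adjusted p of 0.052 to 0.105 when any other library was left out and 0.092 after rescaling the libraries. Rescaling on the median of expressed transcripts, which brings the median log2 fold change from 0.21 to 0.01 over all transcripts, left 1 higher and 5 lower calls among the 12 genes. Without Sox21a replicate 1 or without Sox21a replicate 2, 3 of the 12 genes passed, 1 higher and 2 lower.

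The genes listed as restraining IMD signalling were lower or did not pass. Of 10 listed, 8 were tested, 5 fell and 0 rose, with a median log2 fold change of -1.14. PGRP-LF, at 0.48 (limma adjusted p = 0.059), and CYLD, at 0.44 (0.105), did not pass. Both were higher in every Sox21a library than in any control, as were 35.8% of tested genes. With a trend in limma, a minimum mean of 100 or control replicate 1 left out, 1 gene of the list passed as higher. The homeobox gene caudal (cad), a repressor of peptide genes in the gut, went from 36.5 ± 15.0 to 7.61 ± 2.44 normalized reads (SD, n = 3), with a log2 fold change of -2.09. It met the minimum for testing only through its control libraries, so no p-value is given. Its Sox21a replicate 1, at 5 normalized reads, did not exceed the limit. The POU gene nubbin (nub), of which one isoform (Pdm1) represses peptide genes and which also marks enterocytes, went from 2466 ± 943 to 731 ± 153 normalized reads, at -1.70 (adjusted p = 0.0050). These values are those of the transcript nub-RB, with a protein of 961 residues. Whether the repressing isoform fell was not tested, so nub is among the 5 as a listed gene only. PGRP-LB, an amidase that degrades peptidoglycan, went from 1198 ± 125 to 484 ± 111 normalized reads, at -1.33 (adjusted p = 0.0035). The amidase gene PGRP-SC2 had a log2 fold change of -1.36 (adjusted p = 0.026), a call that was lost with same-numbered libraries paired (adjusted p = 0.059) and without Sox21a replicate 1 (0.084), Sox21a replicate 2 (0.079) or control replicate 2 (0.080). The fifth was dnr1, an inhibitor of the caspase Dredd, at -0.96 (adjusted p = 0.0059). The inhibitor pirk, itself a Relish target, was at 9822 ± 696 and 10544 ± 3432 normalized reads, with a log2 fold change of 0.05 (adjusted p = 0.90) that took the opposite sign, -0.15, after rescaling.

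Of 12 tested genes of the Toll pathway, 2 rose, 1 fell and 9 did not pass, with a median log2 fold change of 0.15. Without control replicate 1, 4 passed as higher and 2 as lower. The inhibitor cactus (cact) rose from 858 ± 75.2 to 1770 ± 43.2 normalized reads (SD, n = 3), with a log2 fold change of 1.05 (limma adjusted p = 0.0019). The receptor PGRP-SA rose from 30.5 ± 17.6 to 80.0 ± 12.8 normalized reads, at 1.49 (adjusted p = 0.021), and this call was lost without Sox21a replicate 1 (adjusted p = 0.071), Sox21a replicate 2 (0.059) or control replicate 3 (0.063) and after rescaling (0.058). PGRP-SD fell, at -1.11 (adjusted p = 0.0062).

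Of 9 tested genes of the JAK/STAT pathway, 0 passed by limma with adjustment, 1 had an unadjusted p under 0.05, and 1 passed when limma was run with a trend. Their median log2 fold change was 0.35. The factor Stat92E had a log2 fold change of -0.52 (limma adjusted p = 0.075), which passed with same-numbered libraries paired (adjusted p = 0.035), without control replicate 1 (0.022) and after rescaling (0.030). Its target and inhibitor Socs36E was at 0.47 (adjusted p = 0.13), and the ligand genes upd2 and upd3 were at 0.31 (adjusted p = 0.51) and 0.41 (adjusted p = 0.16). The target gene TotM passed only without control replicate 2. Its control mean of 7.62 normalized reads was under the minimum for testing, so no p-value is given. The value of upd2 was -0.081 without control replicate 1.

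**Figure D4:**
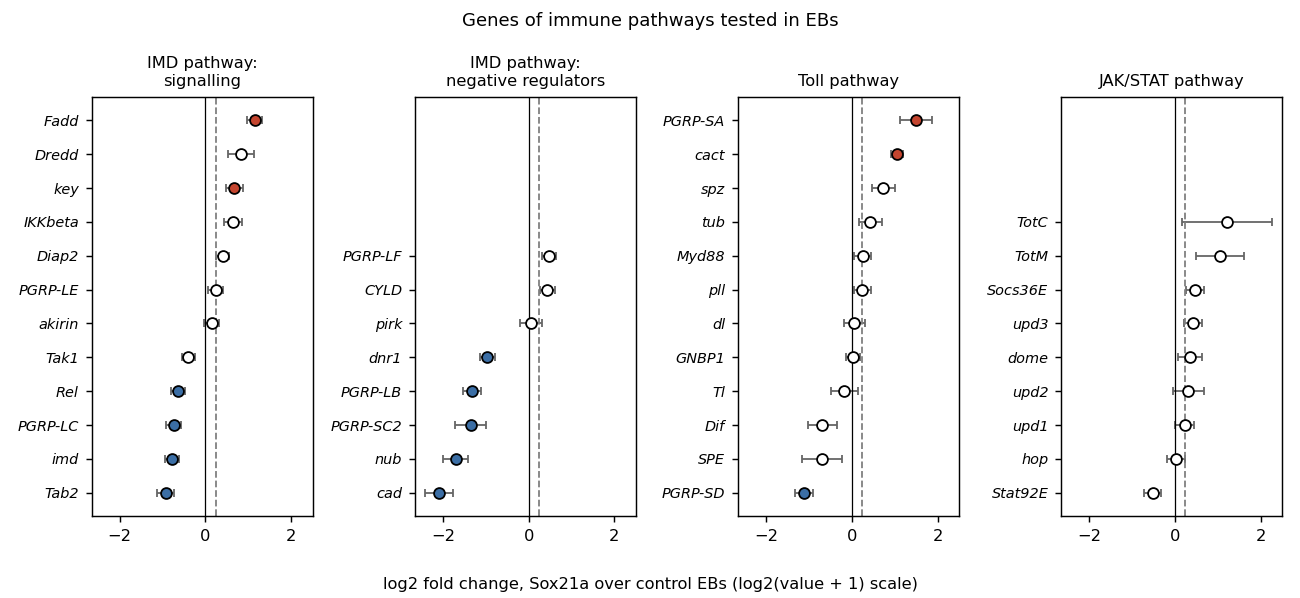
Log2 fold change of Sox21a over control EBs with its standard error (horizontal axis, log2(value + 1) scale) for each tested gene of 4 immune pathway lists, filled red where higher and blue where lower at a limma adjusted p of 0.05, and open where not passed. The dashed line is the median of all tested genes, 0.24. In the list of IMD negative regulators, cad, nub, PGRP-SC2, PGRP-LB and dnr1 lie at the left, and no list holds a value near the 8.01 of AttD. The point of nub is that of the transcript nub-RB, and its repressing isoform was not tested.

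The marker lists of other cells are given because antimicrobial peptides are also made by other cells. Fat body markers were low, with summed levels of 33.1 to 42.4 normalized reads in control and 41 to 54 in Sox21a libraries, and the yolk protein genes Yp1 and Yp2 were at or under the limit in all. Of the haemocyte markers, He was at the smallest value throughout and Hml, NimC1, eater and Pxn had means of at most 7.06, and the summed level was 353 to 440 in control and 127 to 182 normalized reads in Sox21a libraries, nearly all of it from Sr-CI. Visceral muscle markers summed to 32.1 to 46.9 and 44 to 73.8 normalized reads. In bulk samples such as these, fewer cells of a type and less RNA per cell cannot be told apart.

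Several gut and tracheal markers differed between the genotypes. Of 3 progenitor markers, esg fell, with a log2 fold change of -1.51 (limma adjusted p = 0.0011). The other progenitor markers, Dl at 0.42 (adjusted p = 0.37) and klu at -0.42 (adjusted p = 0.18), did not pass. Of 6 enterocyte markers, 4 fell (betaTry, Jon65Aiii, nub and Myo31DF), and the summed level was 34699 to 61385 in control and 17395 to 20195 normalized reads in Sox21a libraries. Mal-A1, at 0.083 (limma adjusted p = 0.87), and Amy-p, at -2.04 (adjusted p = 0.052), did not pass. Of 7 enteroendocrine markers tested, CCHa2 and Tk rose and pros fell, with sums of 783 to 1225 and 2261 to 5953 normalized reads. Of 4 tracheal markers tested, Gasp, btl and trh rose, and the sums were 698 to 964 and 1886 to 2581 normalized reads. Gasp, a cuticle protein gene of tracheae, went from 2.07, 2.23 and 4.14 to 339, 315 and 287 normalized reads, at least 56.2-fold higher. Gasp met the minimum for testing only through its Sox21a libraries. The part of these markers in the levels of the peptide genes was not tested. Single libraries decided 4 of the calls. Myo31DF was kept only without control replicate 1, Tk only without Sox21a replicate 3, and trh was lost without Sox21a replicate 1 or 2 or control replicate 2 (limma adjusted p up to 0.095, 0.130 and 0.085). The call of pros was lost without Sox21a replicate 2 or 3 or control replicate 2 (adjusted p up to 0.062). Rescaling also ended the calls of Tk (adjusted p = 0.092) and trh (0.065), and pairing that of Myo31DF (0.058). Subtraction of the smallest value ended that of Tk (0.055). With no filter on the mean, Tk (0.128), trh (0.063), pros (0.056) and Myo31DF (0.051) did not pass.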

How the data were processed

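RNA of FACS-sorted EBs from pooled flies was linearly amplified and sequenced as paired reads. The authors mapped the reads with Bowtie2 to release 6 of the genome, counted pairs in exons per transcript and divided them by size factors. The deposited signal values, in normalized reads, were used as they stand, and a second deposited table of the authors' own comparison (fold changes and p-values) was not used. Count models were not run, because the unit is not raw counts.

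Values were tested as log2(value + 1) in R 4.3.3 by limma 3.58.1 (moderated linear model, no intensity trend) over all 11400 transcripts with a mean of at least 10, Benjamini-Hochberg adjusted over all of them, at 0.05. Genes were read through their transcript of highest mean. Fold changes on this scale understate those of low genes. The test script was checked on simulated data first. Positions and lengths are from the Ensembl annotation of release 6, to which all 10 genes were matched, Drs by symbol because its identifier in the table is retired. Python 3.11.15 with pandas 2.3.3, numpy 2.4.6 and matplotlib 3.10.9 did the rest.

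The members and the gene lists were chosen with earlier results of these data known. The text names all members, Sox21a, up to 4 genes of each list with the largest change that passed, a few regulators listed by name, neighbours by position, and the 3 closest profiles. Genes outside that rule (key, dnr1, TotM and several marker genes) were named after their values were seen.

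Control and Sox21a libraries of 1 replicate number shifted alike around their group means (correlations across transcripts of 0.171, 0.129 and 0.124, against -0.184 to 0.051 for other pairs), so a paired fit, blocked on replicate, was made beside the unpaired one. Other alternatives were pseudocounts of 0.1 and 10, no filter or a mean of at least 100, a trend in limma, rescaling, subtraction of the smallest value, summed transcripts, stricter calls and each library left out. The limit of detection covers counting error only, while SDs and standard errors are between libraries.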

Additional observations from a re-analysis of the deposited data

How the results depend on the processing

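The number of peptide genes that passed was 4 under every alternative tried except the minimum mean of 100, which removed Drsl4 and left 3. All 79 alternative values of the 5 tested members kept their direction and their side of the threshold. These calls describe the libraries and are not independent evidence, since the members were picked with earlier results known. Drsl3 and Drsl4 met even the minimum mean of 10 only through their Sox21a libraries. Over all transcripts, 3986 passed, 1905 at an adjusted p of 0.01, 2097 with a change of at least 2-fold, 4244 with the replicate block (2864 higher and 1380 lower), and 2444 to 5060 with a library left out, lowest without Sox21a replicate 2, then 2486 without Sox21a replicate 1, and highest without control replicate 1. Rescaling on expressed transcripts turned 2693 higher and 1293 lower into 1881 and 1919, and AttB then had a log2 fold change of 0.47. Of the immune lists 15 genes passed, 9 with a change of at least 2-fold and 10 to 21 with a library left out. The replicate block ended the calls of AttB-RA, PGRP-SC2 (adjusted p = 0.059) and Myo31DF (0.058), gave one to Stat92E (0.035), and changed no other call of a named gene. Values near 0 took the other sign: pirk was -0.15 after rescaling and -0.17 to 0.33 with a library left out, Sox21a -0.14 to 0.062, and upd2 -0.081 to 0.66. The cause of these shifts was not tested. Among the other named genes, 599 alternative values kept their call, 67 lost it, 6 gained one and 8 changed sign. The planned tests on whole read counts were not run. Depth limits AttA, AttC, Drs, Drsl5 and Mtk, where small differences were not detectable.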
